A study of Mus musculus with 59 samples.

Results

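The 9 genes described here encode antimicrobial peptides and proteins of epithelia and of the phagocytes that enter them: the beta-defensins Defb1, Defb3, Defb4 and Defb14, the S100 proteins S100a7a, S100a8 and S100a9, the protease inhibitor Slpi and the cathelicidin Camp. They were followed in forestomach, lung and liver of mice given benzo(b)fluoranthene (BbF), a polycyclic aromatic hydrocarbon. The set was assembled because Defb3 and S100a7a were higher in forestomach at the high dose. It was thus chosen by the forestomach log2 ratios of high-dose against vehicle mice, and that comparison is given below as a description without a test. The 9 genes were measured by 10 of the 55681 probes, or 9 of the 37163 genes and transcripts, on Agilent Sureprint arrays. Camp had 2 probes, called the brighter and the dimmer probe.

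Male Muta™Mouse aged about 16 weeks, a transgenic strain carrying lacZ as a mutation reporter, received BbF in olive oil by gavage each day for 28 days, at 25 (low), 50 (medium) or 100 (high) mg/kg body weight per day. Vehicle mice received olive oil only, and tissues were taken 72 h after the last dose. Each dose was given to 5 mice, and forestomach, lung and liver of the same 20 mice were arrayed (59 arrays, with 4 low-dose lung arrays because no lung array of mouse 7 was analysed here). The labels disagree on the compound: benz(a)anthracene stands in the exposure field and in the series design, but BbF is used here, as in the titles and the treatment protocol. On every array the mouse sample was labelled with Cy5 and a common reference RNA, pooled from 11 mouse cell lines, with Cy3. All values are log2(Cy5/Cy3), so 0 means as bright as the reference, and a difference of 1 between groups is a doubling. No dyes were swapped, so a dye effect on a probe cancels between groups but not in its level. Tissue pieces were arrayed whole, and fewer cells of one type cannot be told apart from less RNA per cell.

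Beta-defensins are small cationic peptides that epithelial cells secrete onto their surface, where they damage microbial membranes. S100a8 and S100a9 form calprotectin, which binds zinc and manganese and so starves microbes of these metals. Calprotectin is abundant in the cytosol of neutrophils and is also made by stressed stratified epithelium. S100a7a is the mouse relative of psoriasin. Slpi inhibits neutrophil elastase and protects mucosal surfaces from it, and Camp encodes the only mouse cathelicidin, stored in neutrophil granules. The forestomach is lined by keratinised stratified epithelium like that of skin, a site where many of these genes are active.

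The genes lie in a few clusters. All 4 beta-defensin genes lie on chromosome 8, and S100a7a, S100a8 and S100a9 are direct neighbours on chromosome 3, in that order. Slpi lies on chromosome 2 and Camp on chromosome 9. The RefSeq table of GRCm38.p6 held promoter windows for 6 of the 9 genes. The 250 bases before the transcription start are shown for the pair that named the set and for the calprotectin pair, 5′ to 3′ on the strand of the gene. In the results below, S100a8 was called in high-dose lung, close to the threshold. In liver, S100a9 was called only when the array slides were taken into account. Capitals mark matches to the TATA box (TATAAA) and to the C/EBP motif (TTNNGNAA), read on both strands. Defb3 is at chr8:19293111-19293360 (plus strand), S100a7a at chr3:90654052-90654301 (plus), S100a8 at chr3:90668821-90669070 (plus) and S100a9 at chr3:90695722-90695971 (minus).
Defb3: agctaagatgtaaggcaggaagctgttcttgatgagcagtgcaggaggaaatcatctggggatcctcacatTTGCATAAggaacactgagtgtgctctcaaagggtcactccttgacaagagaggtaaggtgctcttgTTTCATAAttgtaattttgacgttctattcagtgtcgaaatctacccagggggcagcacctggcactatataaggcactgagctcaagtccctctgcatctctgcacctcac
S100a7a: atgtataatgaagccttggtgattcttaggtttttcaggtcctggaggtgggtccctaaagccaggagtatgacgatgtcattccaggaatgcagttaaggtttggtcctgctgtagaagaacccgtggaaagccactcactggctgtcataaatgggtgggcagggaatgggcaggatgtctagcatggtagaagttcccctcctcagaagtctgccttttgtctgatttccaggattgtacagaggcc
S100a8: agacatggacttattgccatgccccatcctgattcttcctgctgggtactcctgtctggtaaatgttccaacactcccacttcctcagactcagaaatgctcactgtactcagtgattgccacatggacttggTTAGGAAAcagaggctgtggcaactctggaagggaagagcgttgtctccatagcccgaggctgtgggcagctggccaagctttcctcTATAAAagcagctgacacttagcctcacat
S100a9: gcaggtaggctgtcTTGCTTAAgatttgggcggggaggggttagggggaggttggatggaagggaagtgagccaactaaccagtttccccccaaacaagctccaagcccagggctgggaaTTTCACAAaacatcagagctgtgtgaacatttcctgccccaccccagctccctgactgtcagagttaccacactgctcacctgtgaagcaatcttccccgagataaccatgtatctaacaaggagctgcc
C/EBP factors are transcription factors of myeloid and epithelial cells. The C/EBP letters began 179 and 112 bases before the start of Defb3, 117 bases before that of S100a8 and 236 and 130 bases before that of S100a9. They were in the windows of 4 of the 6 genes (Slpi being the other) and in 36.9% of 32841 mouse promoter windows of this length. TATAAA was present in S100a8 alone of the 6, 30 bases before its start, and in 12.4% of all windows. The letters of AP-1 (TGANTCA, 6.75% of all windows), NF-kB (0.98%) and the core of the aryl hydrocarbon receptor element (GCGTG, 28.2%) were in none of the 6. S100a7a and Camp held none of the motifs searched.

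Some arrays stood apart and touch the results. The third liver slide carried 8 arrays (1 vehicle, 2 low, 2 medium and 3 high-dose mice), on which 10.7% to 12.9% of probes were well above background in Cy5, against 37.1% to 46.2% on the other 12 liver arrays. The share was 68.8% in the lung of medium-dose mouse 13, 44.8% to 52.7% in the other 18 lungs and 39.6% to 52.0% in forestomach. The lung array of low-dose mouse 6 carried transcripts of stratified epithelium: Krt4 was at 5.73 and Krt13 at 4.17, against at most 0.36 and -0.90 in the other 18 lungs, and the mean of 20 stratified epithelium markers was 1.82 against -0.48 to -0.10. In forestomach the mean of 9 glandular stomach markers fell into separate clusters, 7 arrays from 0.21 to 2.47 and 13 arrays from 4.06 to 6.71. The 13 arrays were 3 vehicle, 3 low, 3 medium and 4 high-dose mice. In the lung of vehicle mouse 4 the glandular stomach marker mean was 1.42, with 4 of the 9 markers well above background, against -0.018 to 0.46 in the other 18 lungs. The liver gene Alb reached 4.79 and Apoa2 3.18 in forestomach, both in medium-dose mouse 12, against medians of 1.97 and 0.20 over all 20 forestomachs. The defining epithelium of the forestomach was present throughout, with 18 of the 20 stratified epithelium markers well above background on every forestomach array.

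In vehicle mice, forestomach carried the highest log2 ratios of Defb1, Defb14 and Slpi, and lung those of S100a8, S100a9 and Camp. Defb1, a defensin made constitutively by many epithelia, was at 4.17, 5.32, 4.55, 4.52 and 5.09 in the 5 forestomachs. It lay between -0.16 and 0.16 in the 5 lungs and between 0.11 and 0.37 in the 5 livers. Every forestomach was thus far above every lung and liver. Defb14, the mouse relative of human beta-defensin 3, was at 3.77, 4.19, 3.98, 3.68 and 2.94 in forestomach, again with no overlap with lung (-0.07 to 0.25) or liver (-0.11 to 0.25). In none of the vehicle lungs was either probe well above background, so their excess was a bound: at least 15.0-fold for Defb1 and at least 9.43-fold for Defb14 over lung. Slpi was at 0.68 to 2.02 in forestomach, -2.04 to -1.38 in lung and -4.33 to -2.08 in liver, so the tissues did not overlap.

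The calprotectin pair had another order. S100a9 was at 6.10 to 7.02 in vehicle lung, 4.32 to 5.10 in forestomach and -0.039 to 1.93 in liver. S100a8 was at 1.67, 2.53, 3.60, 3.06 and 2.61 in lung, against -2.32 to -1.38 in forestomach and -1.86 to -0.21 in liver. Lung was therefore above both other tissues for each, while forestomach and liver overlapped for S100a8 but not for S100a9. The brighter Camp probe was at 0.53 to 2.82 in lung, against -0.12 to 0.23 in forestomach and -0.018 to 0.43 in liver. Defb3, Defb4 and S100a7a stayed within -0.36 to 0.48 in all vehicle arrays, and none of the 3 was well above background on more than 2 of the 5 vehicle arrays of a tissue.

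The levels were compared with limma, which was fitted on all probes. A differentially expressed gene (DEG) had a Benjamini-Hochberg adjusted p of at most 0.05 and a change of at least 1.5-fold, and a gene counted when any of its probes did so. Between forestomach and lung, 6 of the 9 were DEGs, against 25.0% of all genes. Defb1 (difference 4.76 ± 0.18, SE), Defb14 (3.66 ± 0.19) and Slpi (3.21 ± 0.26) were higher in forestomach, and S100a8 (-4.66 ± 0.30), S100a9 (-1.89 ± 0.18) and both Camp probes (-1.36 ± 0.32 and -0.87 ± 0.22) were lower. Between forestomach and liver 4 were DEGs, all higher in forestomach, where 24.4% of all genes were DEGs: Defb1, Defb14, S100a9 (3.52 ± 0.33) and Slpi (5.11 ± 0.44). S100a8 differed by -0.70 ± 0.29 there (limma adjusted p = 0.108), which passed with the mouse as a block (adjusted p = 0.0464). Without the third liver slide its difference was -0.44 and did not pass (adjusted p = 0.111). S100a8 was well above background on only 3 of the 5 vehicle forestomach arrays and 2 of the 5 vehicle liver arrays. Between lung and liver 4 were DEGs, all higher in lung, against 30.2% of all genes. These were S100a8 (3.96 ± 0.37), S100a9 (5.40 ± 0.33), Slpi (1.90 ± 0.37) and Camp (brighter probe 1.17 ± 0.34, dimmer probe 0.90 ± 0.22). Vehicle mouse 5 was on the third liver slide, and without it Slpi differed by 5.51 from forestomach and 2.31 from lung, with the same genes called. Neither Camp probe differed between lung and liver at the threshold once arrays were centred on their median in place of loess (adjusted p = 0.0902 and 0.107).

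**Figure D1:**
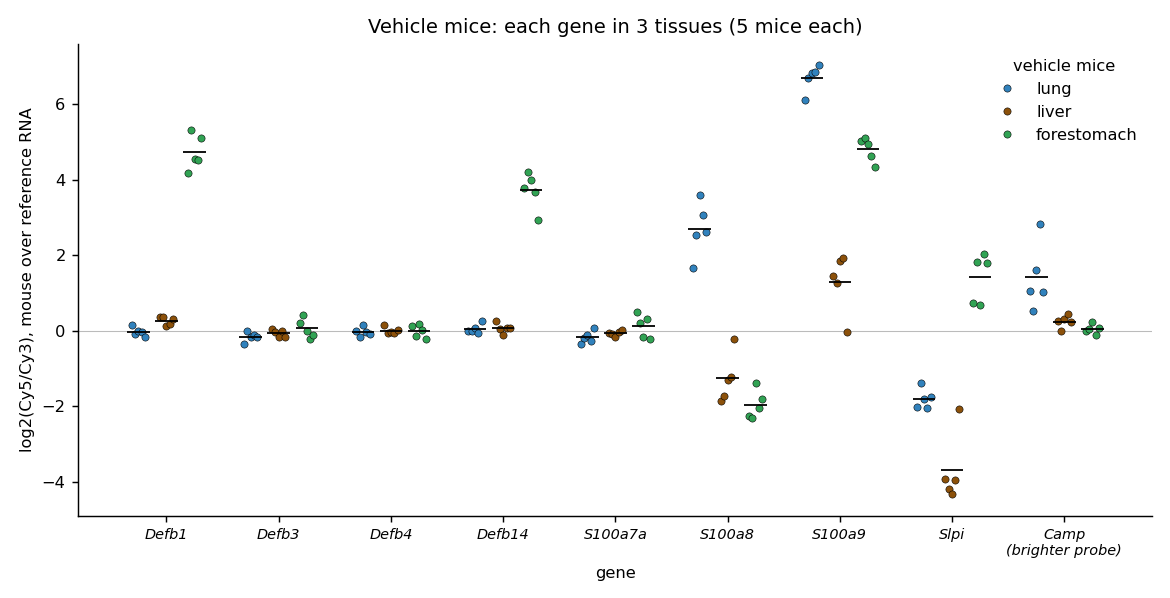
Log2(Cy5/Cy3) of each gene in vehicle lung, liver and forestomach (1 point per mouse, 5 mice per tissue, bar at the mean). Defb1, Defb14 and Slpi were highest in forestomach, S100a8, S100a9 and Camp in lung, and Defb3, Defb4 and S100a7a lay between -0.36 and 0.48 throughout.

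In forestomach, Defb3, S100a7a and Defb14 were higher at the high dose than in vehicle mice, without overlap. Defb3, an inducible epithelial defensin, was at 0.20, 0.42, -0.0095, -0.21 and -0.12 in vehicle mice. It was at 0.79, 1.58, 0.87, 1.33 and 0.94 in high-dose mice, a mean of 1.10 ± 0.34 (SD, n = 5) against 0.056 ± 0.25. Its probe was well above background on none of the 5 vehicle arrays and on all 5 high-dose arrays, so the difference of 1.05 in log2 stood for an excess of at least 1.63-fold. S100a7a was at 0.48, 0.20, -0.16, 0.31 and -0.22 in vehicle and 1.25, 1.17, 1.63, 0.75 and 1.09 in high-dose mice, a difference of 1.06. The lowest high-dose mouse lay above the highest vehicle mouse for both genes. Both differences were smaller when arrays were centred on the median without loess, at 0.76 for Defb3 and 0.70 for S100a7a. On the 3 slides the difference was 0.88 to 1.27 for Defb3 and 0.87 to 1.25 for S100a7a. Its direction there was fixed in advance, since the groups did not overlap.

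Defb14 had a larger log2 difference than either. It was at 3.77, 4.19, 3.98, 3.68 and 2.94 in vehicle mice and 4.59, 5.20, 4.52, 4.83 and 5.57 in high-dose mice. This difference of 1.23 (2.34-fold) started from a level far above background, unlike those of Defb3 and S100a7a, whose size near background is not known exactly, so the 3 genes cannot be ranked. Defb4, another inducible defensin, was at 1.02, 0.31, 0.72, 0.21 and -0.08 in high-dose mice, against -0.23 to 0.18 in vehicle mice. Its groups overlapped, and it was well above background on 2 of the 5 high-dose arrays. Defb1 did not share the pattern, with a difference of -0.16.

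The remaining genes overlapped between vehicle and high-dose forestomach. S100a9 differed by 0.79, with 4 high-dose mice from 5.75 to 6.76 above every vehicle mouse (4.32 to 5.10) and mouse 19 at 3.73 below all of them. Without mouse 19 the difference was 1.25, and without mouse 20 it was 0.49. S100a8 differed by 0.33, Slpi by -0.11 and the brighter Camp probe by -0.02. In all, 3 of the 9 did not overlap and were higher, where 1.33% of all genes were, and 4 of the 9 were at least 1.5-fold higher, where 1.40% were. Nothing is read from these shares, since this comparison chose the set. The median difference was 0.45 over the 9 genes and -0.00074 over all genes.

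**Figure D2:**
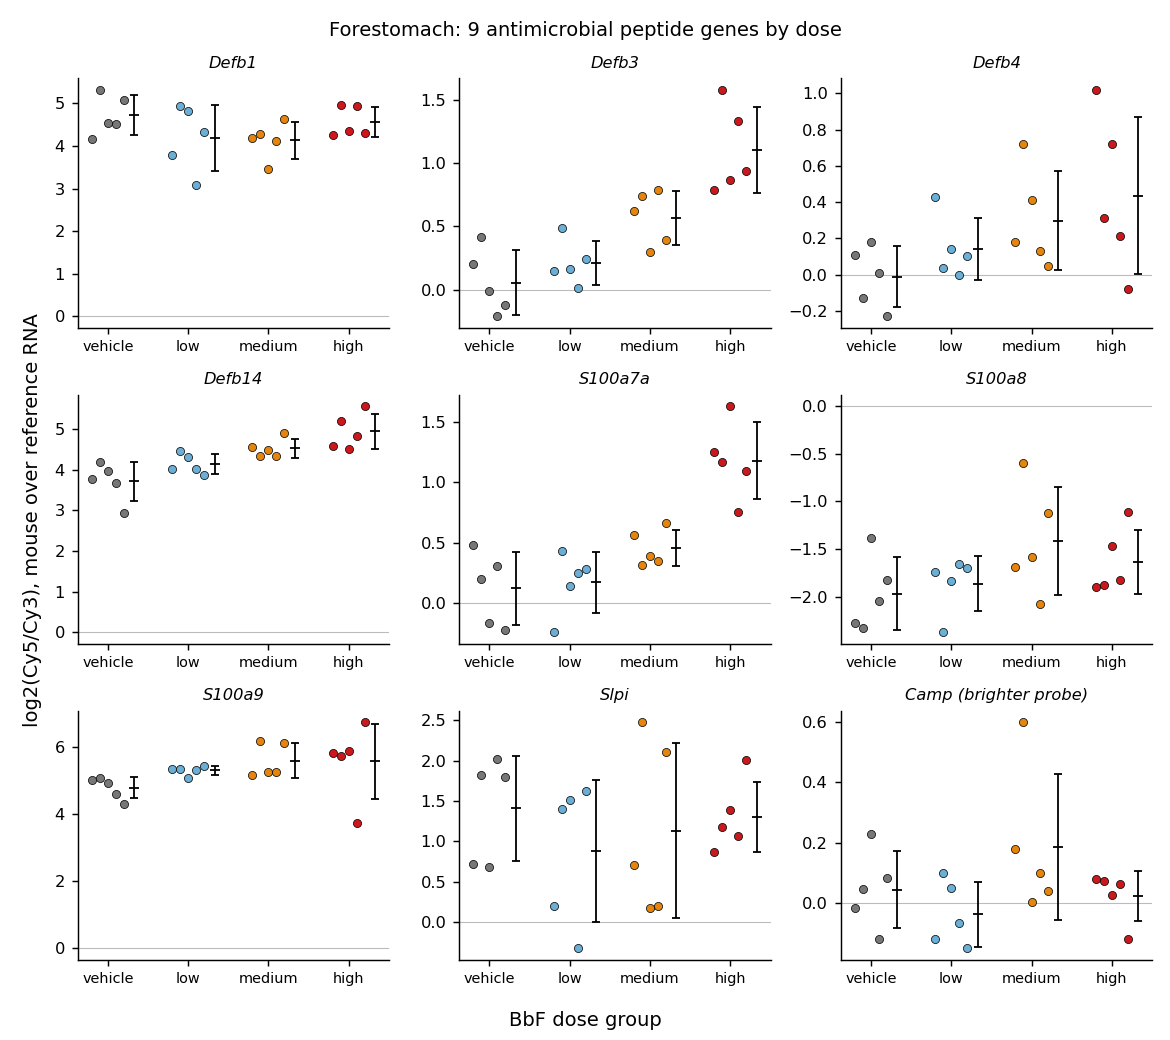
Log2(Cy5/Cy3) of the 9 genes in forestomach by dose (1 point per mouse, 5 mice per dose, bars at mean ± SD). The axes differ between panels. Defb3, S100a7a and Defb14 at the high dose lay above every vehicle mouse, and S100a9 of high-dose mouse 19 lay at 3.73.

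The low and medium doses were not used to choose the set, but they share their vehicle arrays with the high-dose comparison, so the directions are not independent of it. At the medium dose, Defb14 was at 4.55, 4.34, 4.48, 4.33 and 4.91, and S100a9 at 5.17, 6.20, 5.27, 5.28 and 6.13. For both genes all 5 medium-dose mice lay above all 5 vehicle mice. These were 2 of the 9 genes, where 0.457% of all genes were higher without overlap. The differences were 0.81 ± 0.21 (SE) for Defb14 and 0.81 ± 0.37 for S100a9, and neither passed the test (limma adjusted p = 0.760 and 0.861). Defb3 was at 0.62, 0.74, 0.30, 0.79 and 0.39, and 3 of the 5 mice lay above every vehicle mouse (difference 0.51 ± 0.15, adjusted p = 0.798). S100a7a differed by 0.33 ± 0.16 and S100a8 by 0.55 ± 0.24, with overlapping groups. In limma, 0 of the 9 genes and 0% of all genes were DEGs at the medium dose, whereas 5 of the 9 genes had an unadjusted p under 0.05 (5.67% of all probes had one).

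At the low dose no gene stood clear of the vehicle mice. Defb3 was at 0.15, 0.49, 0.16, 0.013 and 0.24 and Defb14 at 4.01, 4.46, 4.31, 4.02 and 3.88. Differences ran from -0.54 for Defb1 to 0.51 for S100a9. In limma 0 of the 9 genes and 0% of all genes were DEGs, and 0 of the 9 had an unadjusted p under 0.05 (4.62% of all probes had one). The mean of Defb3 was thus 0.056, 0.21, 0.57 and 1.10 from vehicle to high dose, that of S100a7a 0.12, 0.17, 0.46 and 1.18, and that of Defb14 3.71, 4.13, 4.52 and 4.94. Neighbouring doses overlapped in these series, except that medium and high met at 0.79 for Defb3 and were apart for S100a7a (0.32 to 0.66 against 0.75 to 1.63).

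Across the 20 forestomach arrays, Defb3 was correlated with S100a7a (r = 0.73) and Defb14 (r = 0.78), as a description in which the points share the dose groups. After each dose group was centred on its mean, r was -0.073 and 0.33. Defb3 was well above background on 8 of these 20 arrays and S100a7a on 13. The centred r of Defb3 and S100a7a thus rests partly on background values and cannot show whether they vary together within doses. Defb1 and Slpi varied together also within doses (r = 0.65, and 0.64 after centring). Slpi was at -0.33 to 2.02 (median 0.72) on the 13 arrays with a high glandular marker mean and 1.40 to 2.48 (median 1.82) on the other 7, and Defb1 at 3.09 to 4.97 (median 4.26) against 4.27 to 5.32 (median 4.81), so both overlapped. Within the 13 arrays r with the marker mean was -0.42 for Slpi and -0.68 for Defb1, and within the 7 it was -0.31 and 0.55. Defb3 lay at -0.21 to 1.58 on the 13 arrays and -0.12 to 0.94 on the other 7, and Defb14 at 3.68 to 5.20 and 2.94 to 5.57. Within the 7, r with the marker mean was -0.83 for Defb3, -0.73 for Defb14, -0.58 for S100a7a and -0.72 for S100a9. With the farthest arrays left out these were -0.73, 0.55, 0.41 and -0.30. Within the 13 arrays r was -0.12, -0.13, -0.018 and 0.26. The part of these markers in the values of any gene was not tested. The mean of 17 neutrophil markers was 0.53 to 1.07 in vehicle and 0.88 to 1.14 in high-dose forestomach. Among them, Ltf was at 3.26 to 5.51 on the 13 arrays with a high glandular marker mean and -0.13 to 0.30 on the other 7. The part of Ltf in this mean was not tested. Of the 17 markers, 9 were well above background on every forestomach array. Mmp8, Cd177 and Fcnb, which mark neutrophils and their precursors, were so on none. Ngp, Mmp9 and Retnlg were so on no vehicle array, but each was so on some high-dose array. The mean of the stratified epithelium markers was 4.03 to 4.55 in vehicle and 4.25 to 4.43 in high-dose mice, so it overlapped.

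Among 16369 probes measured in forestomach, the genes with a pattern most like Defb3 were Mmrn2 (r = 0.84), Gm21944 (0.82), Mbd6 (0.82), Pgbd5 (0.82) and Ces2f (0.80). For S100a7a they were Ces2f (0.86), Pgbd5 (0.79), Ms4a4d (0.78), Pigv (0.78) and Spint1 (0.78). Ces2f, a carboxylesterase, and Pgbd5 were on both lists. These coefficients are over the same 20 arrays and fell when dose groups were centred, to between 0.11 and 0.51 for the Defb3 list and between 0.14 and 0.38 for the S100a7a list except Spint1, which stayed at 0.77. The ranking includes the high-dose arrays that chose the set, so it favours any gene that follows the dose. Defb3 was well above background on 8 of the 20 arrays and S100a7a on 13. Nothing is read from the names that the lists share.

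In lung, S100a8 rose at the high dose, and it was the only one of the 9 to pass the test. It was at 1.67, 2.53, 3.60, 3.06 and 2.61 in vehicle mice and at 3.62, 3.71, 3.43, 4.47 and 4.24 in high-dose mice. The groups overlapped by 1 mouse, since vehicle mouse 3 lay above high-dose mouse 18. The difference was 1.20 ± 0.34 (SE), or 2.29-fold (limma adjusted p = 0.0402). Hence 1 of the 9 genes was a DEG, where 1.93% of all genes were, 1.36% in this direction. The call was close to the threshold: it was lost without mouse 1, 2, 5, 17, 19 or 20 (adjusted p = 0.0661 to 0.124), while the difference stayed between 0.94 and 1.42 over all mice left out in turn. On the 3 slides the difference was 1.56, 0.095 and 1.75, the second with a single high-dose mouse.

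S100a9, which pairs with S100a8 in calprotectin, was at 6.10, 6.68, 6.83, 6.84 and 7.02 in vehicle lung and 7.28, 7.09, 6.81, 8.02 and 7.96 in high-dose lung. 4 of the 5 high-dose mice lay above every vehicle mouse. The difference of 0.74 ± 0.25 did not pass (adjusted p = 0.0882), but it did with the slide as a block (0.61, adjusted p = 0.0214) or with median centring (1.07, adjusted p = 0.00174). At the medium dose S100a8 was at 3.29, 2.54, 3.68, 4.70 and 3.21 (difference 0.79 ± 0.34, adjusted p = 0.293) and S100a9 at 7.66, 6.65, 6.97, 8.14 and 7.50 (0.69 ± 0.25, adjusted p = 0.184). Median centring brought S100a9 past the threshold there too (0.86, adjusted p = 0.0480). At the medium dose 0 of the 9 genes and 0.638% of all genes were DEGs. In limma 2 of the 9 had an unadjusted p under 0.05 at the medium dose (14.1% of all probes) and 2 at the high dose (18.4%).

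Defb3 and S100a7a stayed near background in lung. Defb3 lay between -0.41 and 0.075 and S100a7a between -0.53 and 0.24 over all 19 lungs, well above background on none. Defb1, Defb4 and Defb14 were each well above background on 2 lung arrays, those of mouse 6 and mouse 13, whereas Slpi was so on all 19. Slpi was at -2.15, -0.85, -0.80, 0.15 and -1.48 in high-dose lung, against -2.04 to -1.38 in vehicle lung, a difference of 0.77 ± 0.42 (adjusted p = 0.354). Slpi was thus more spread at the high dose, with mice above and below the vehicle range. The brighter Camp probe was at 1.35, 1.40, 1.78, 3.31 and 1.51 at the high dose, inside the vehicle range except for mouse 19 (difference 0.47 ± 0.47, adjusted p = 0.679).

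At the low dose, lung mouse 6 held Defb14 at 3.55, Defb1 at 1.88, Defb4 at 0.98 and Slpi at 0.69. The other 3 low-dose lungs were at -0.022 to 0.14, -0.020 to 0.15, -0.13 to -0.021 and -1.87 to -0.78. Defb14, Defb1 and Slpi were also the 3 of the 9 genes that were higher in vehicle forestomach than in vehicle lung. Defb4 was not (difference 0.023) and was near background in both. The keratins Krt4 and Krt13 were raised on the same array of mouse 6. The part of these transcripts in the defensin values was not tested. The low-dose difference of Defb14 was 0.87 with this mouse and -0.011 without it. In limma 0 of the 9 genes were DEGs at the low dose, where 0.449% of all genes were, and 1 of the 9 had an unadjusted p under 0.05 (9.07% of all probes). Leaving mouse 6 out of the lung fit left the high-dose S100a8 difference at 1.20 (adjusted p = 0.0387), and so did leaving out mouse 13 (adjusted p = 0.0434).

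Some neutrophil genes rose in lung at the same dose as S100a8. Of 17 measured neutrophil markers, 3 rose at the high dose and none fell, where 1.36% of all genes rose: Mmp8, a neutrophil collagenase (2.19 ± 0.35, adjusted p = 0.000607), Retnlg, a resistin-like protein of neutrophils (1.26 ± 0.33, adjusted p = 0.0262), and Stfa2, a cysteine protease inhibitor (0.69 ± 0.16, adjusted p = 0.0109). Their list mean was 0.75 to 1.15 in vehicle and 0.98 to 1.65 in high-dose lung, so it overlapped, and the list's median change was 0.12 against -0.0033 over all genes. Of the 17 markers, 10 were well above background on all 19 lung arrays. No high-dose lung array had the granule gene Mpo well above background, and no vehicle, medium or high-dose array had Fcnb so. Over the 19 lungs S100a9 was correlated with Retnlg (r = 0.83, and 0.79 with dose groups centred) and with S100a8 (0.81 and 0.71). S100a8 was correlated with Retnlg likewise (0.79 and 0.63). With Mmp8, the marker that rose by the most, r was 0.69 (0.38 centred) for S100a8 and 0.71 (0.55) for S100a9. Camp was correlated with Ngp, another gene of neutrophil granules (0.80, and 0.80 centred), with S100a8 (0.52 and 0.53) and with Retnlg (0.29 and 0.20). The part of neutrophil number in the S100 values was not tested.

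**Figure D3:**
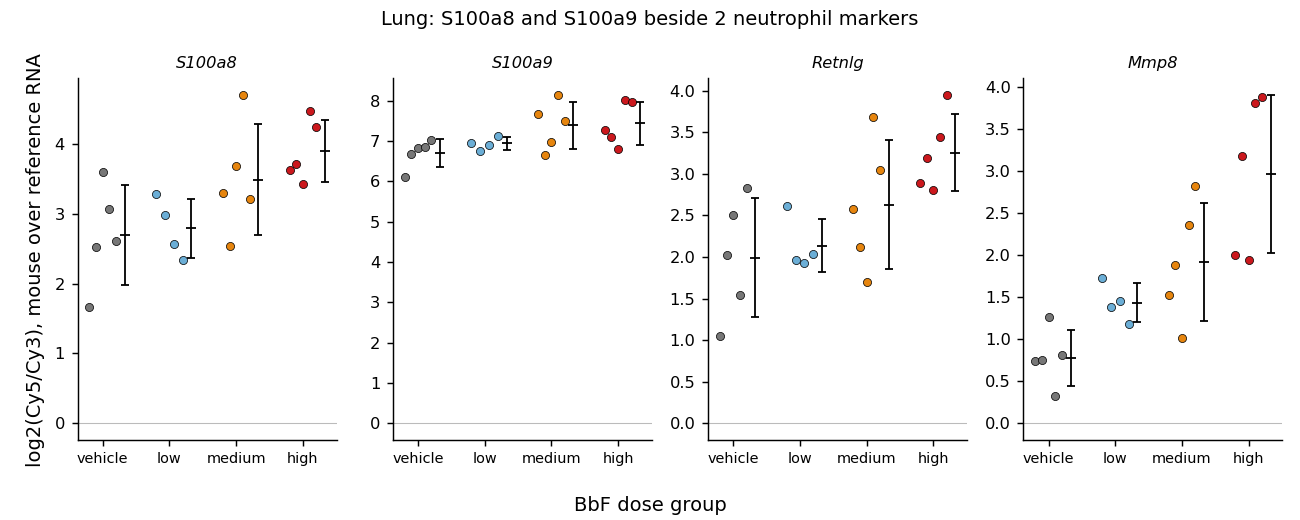
Log2(Cy5/Cy3) of S100a8, S100a9 and the neutrophil markers Retnlg and Mmp8 in lung by dose (1 point per mouse, 4 or 5 mice per dose, bars at mean ± SD). The axes differ between panels. S100a8 had a mean of 2.70 in vehicle and 3.89 in high-dose lung, with 1 vehicle mouse above the lowest high-dose mouse.

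Other genes of epithelial defence were counted in lists by role. In lung at the high dose 2 of 37 other antimicrobial genes rose and none fell, where 1.93% of all genes were DEGs: Wfdc12, a whey acidic protein like Slpi (1.82 ± 0.37, limma adjusted p = 0.00396), and Pglyrp1, a peptidoglycan-binding protein of neutrophil granules (0.92 ± 0.22, adjusted p = 0.0137). Of 21 cytokine ligands 1 rose, Il1b (1.14 ± 0.29, adjusted p = 0.0200), whose product induces defensins in epithelia. Of 30 receptors and sensors 1 rose, the lymphocyte activation marker Cd69 (1.27 ± 0.16, adjusted p = 6.28e-05), and 1 fell, the growth factor receptor Egfr (-0.75 ± 0.10, adjusted p = 0.000156). Of 24 signalling and transcription genes 1 rose, Klf4, a factor of epithelial differentiation (0.92 ± 0.12, adjusted p = 0.000108). Of 20 processing proteases and inhibitors 1 rose, Serpinb1a, an inhibitor of neutrophil proteases (1.24 ± 0.12, adjusted p = 1.85e-06). Among 13 other S100 genes none was a DEG. Nothing is read about the lists from single calls in 20 to 37 genes. The median change of each of these lists lay between -0.0070 and 0.044, against -0.0033 over all genes. At the medium dose Cd69 (0.77 ± 0.16, adjusted p = 0.0156) and Serpinb1a (0.78 ± 0.12, adjusted p = 0.00132) alone of these genes were DEGs (0.638% of all genes were), and at the low dose none was (0.449% of all genes were). In forestomach none of these genes was a DEG at the low, medium or high dose, and 0.102% of all genes were DEGs at the high dose.

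In liver, S100a9 was raised at the medium and high doses once the array slides were taken into account, while the whole set of arrays gave no DEG among the 9. Over all 20 arrays S100a9 differed from vehicle by 0.88 (medium dose) and 0.75 (high dose), with overlapping groups. In limma 0 of the 9 genes were DEGs at the low, medium and high doses, where 0%, 0% and 0.00538% of all genes were. 1 of the 9 had an unadjusted p under 0.05 at the medium dose (4.53% of all probes) and 0 did at the low (3.41%) and high doses (7.46%). Levels lay closer to 0 on the third slide: S100a9 was at -0.039 to 1.33 there and 1.26 to 4.35 on the other 12 arrays, Slpi at -2.20 to -1.75 against -4.33 to -3.88, and S100a8 at -0.65 to -0.12 against -1.95 to -0.61. Because 3 of the 5 high-dose mice but 1 vehicle mouse were on it, results are given with and without it.

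Without the third slide, S100a9 was at 1.45, 1.26, 1.84 and 1.93 in 4 vehicle mice and at 1.82, 2.60 and 3.00 in 3 low-dose mice. It was at 2.99, 3.21 and 4.35 in 3 medium-dose mice and at 3.94 and 3.86 in 2 high-dose mice. Every medium and high-dose mouse lay above every vehicle mouse. The difference was 1.90 ± 0.29 at the medium dose (3.73-fold, limma adjusted p = 0.00615) and 2.28 ± 0.33 at the high dose (4.86-fold, adjusted p = 0.00331), and at the low dose it was 0.85 ± 0.29 (adjusted p = 0.486). With all 20 arrays and the slide as a block, S100a9 also rose, by 1.36 (medium dose, adjusted p = 0.0255) and 1.95 (high dose, adjusted p = 0.00102). Within slides 1, 2 and 3 the medium-dose difference was 1.90, 1.64 and 0.18, and within slides 2 and 3 the high-dose difference was 2.55 and 0.84. On the third slide itself the vehicle mouse was at -0.039 and the high-dose mice at 0.21, 1.33 and 0.87. The direction was thus the same there, with smaller values. However, S100a9 was well above background on only 2 of these 8 arrays, and the vehicle array was not among them.

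At the medium dose 1 of the 9, S100a9, was called without the third slide, where 0.522% of all genes were DEGs (0.151% with the slide block). At the high dose 2 of the 9 were called without that slide, against 1.05% of all genes, and 1 of the 9 with the slide block, against 0.342%. The additional gene was Defb1, at 0.83 and 1.66 in the 2 high-dose mice and 0.11 to 0.37 in the 4 vehicle mice (0.99 ± 0.20, adjusted p = 0.0229). Defb1 was not called with the slide as a block (0.45, adjusted p = 0.353). In the same comparison 2 of 20 stratified epithelium markers were also called, the cornified envelope gene Lor (1.38 ± 0.14, adjusted p = 0.000135) and the desmosome gene Pkp1 (0.83 ± 0.19, adjusted p = 0.0417), and none was with the slide block. The mean of these 20 markers was -0.081 and -0.053 in the 2 high-dose mice and -0.19 to -0.13 in the 4 vehicle mice, while the keratins Krt4, Krt5, Krt13 and Krt14 reached at most 0.34 on any liver array. The part of these markers in the Defb1 value was not tested. S100a8 stayed below the threshold without the third slide (0.49 ± 0.24 at the high dose, adjusted p = 0.419), although it was correlated with S100a9 over the 12 arrays (r = 0.77). The brighter Camp probe was at 0.51 to 0.96 in the 3 medium-dose mice, above all 4 vehicle mice, and this difference of 0.49 ± 0.13 (SE) did not pass the test (adjusted p = 0.115). Slpi, with a difference of 0.96 over all arrays, differed by 0.01 without the slide.

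No neutrophil marker passed the test in liver. Of 17 markers 0 were DEGs at any dose, with or without the third slide or with the slide block. Without the third slide their mean was -0.22 to -0.083 in vehicle, -0.22 to -0.17 in medium and -0.25 to -0.12 in high-dose mice. Mmp8 and Retnlg reached at most 0.27 on any liver array, and Cxcr2 at most 0.54. Without the third slide Elane, Csf3r, Itgam and Lcn2 were well above background on every array. However, 13 of the 17 markers were so on no medium-dose array and 11 on no high-dose array. A change in those markers could have been missed. Of the lists by role, Socs3, an inhibitor of cytokine signalling, was called at the medium dose without the third slide (0.90 ± 0.19, adjusted p = 0.0479), as 1 of 24 signalling genes, where 0.522% of all genes were DEGs. Cd36, a fatty acid transporter and scavenger receptor, was called at the high dose in the same arrays (1.60 ± 0.31, adjusted p = 0.0211), as 1 of 30 receptors, where 1.05% of all genes were DEGs. Defb3, Defb4 and S100a7a were well above background on none of the 20 liver arrays.

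**Figure D4:**
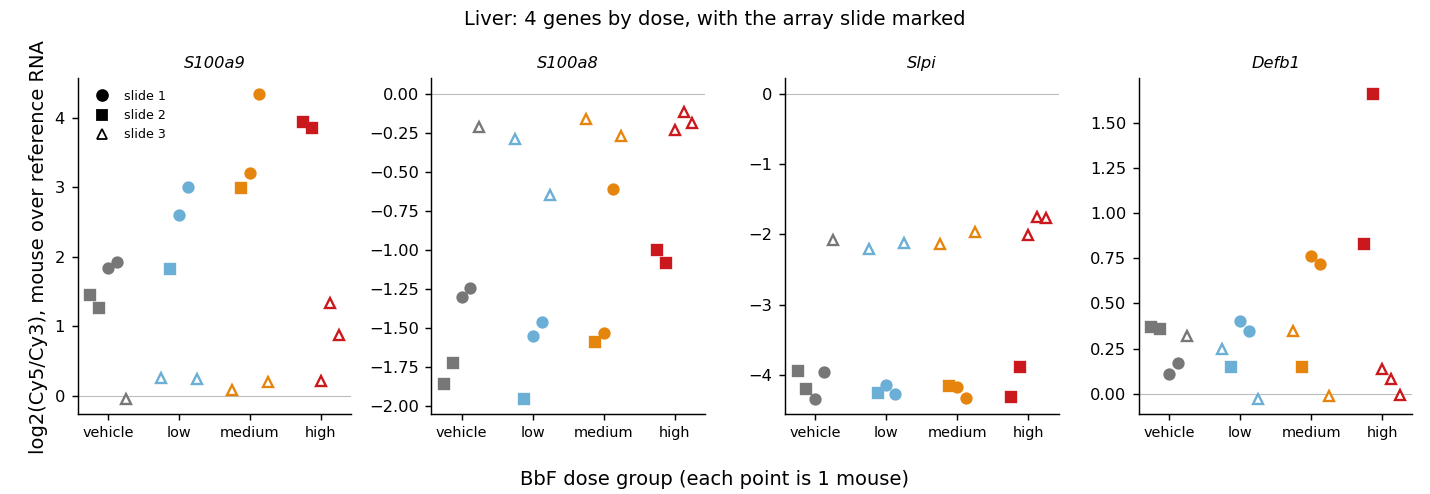
Log2(Cy5/Cy3) of S100a9, S100a8, Slpi and Defb1 in liver by dose, with the slide of each array marked (1 point per mouse). The axes differ between panels. On the third slide (open triangles) S100a9 lay at or under 1.33 at every dose, while on the other slides it went from 1.26 to 1.93 in vehicle mice to 3.86 and 3.94 in high-dose mice.

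The high-dose differences of lung and liver were also compared directly. In limma 0 of the 9 genes had a difference between the 2 high-dose effects past the threshold, where 0.269% of all genes did, and 0 had an unadjusted p under 0.05 (10.7% of all probes had one). Without the third liver slide 2 of the 9 did, where 1.29% of all genes did: S100a9 (lung minus liver -1.54, adjusted p = 0.0454) and Defb1 (-0.96, adjusted p = 0.0215), both higher in liver. For S100a8 this difference was 0.46 with all arrays and 0.71 without the slide (adjusted p = 0.604). Effects in forestomach were not compared with those of other tissues by a test, because the high dose in forestomach chose the set. Side by side, the high-dose differences were 1.05 in forestomach, 0.058 in lung and 0.058 in liver for Defb3, 1.06, -0.093 and 0.088 for S100a7a, and 1.23, 0.11 and -0.079 for Defb14.

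**Figure D5:**
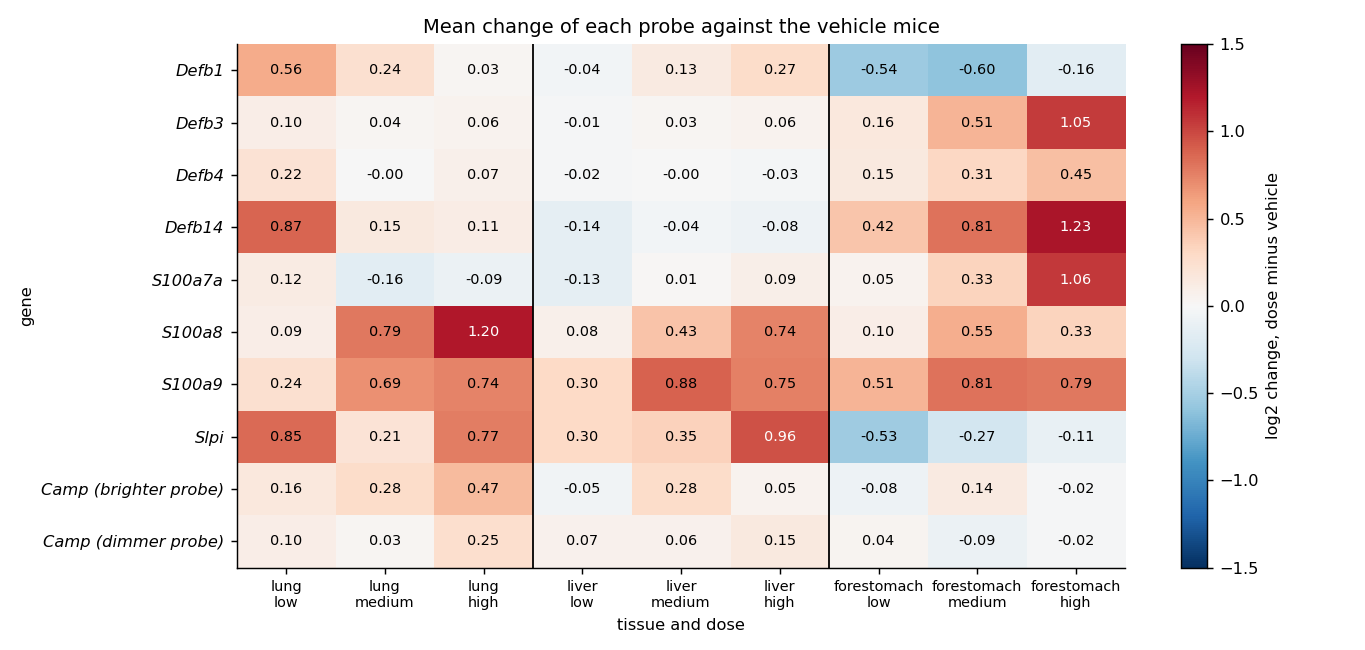
Mean log2 difference from vehicle of each of the 10 probes at each dose in lung, liver and forestomach (colour and printed value, all arrays). Defb3, S100a7a and Defb14 stand out in high-dose forestomach (1.05, 1.06 and 1.23) and S100a8 in high-dose lung (1.20), and the values of low-dose lung include mouse 6.

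How many of the 9 could be measured differed by tissue. In forestomach Defb1, Defb14, S100a9 and Slpi were well above background on all 20 arrays, and 8 of the 9, all but Defb4, were so on every array of at least 1 dose group. For Defb3 and S100a7a this was the high-dose group alone, which chose the set, so the forestomach count rests partly on that group. In lung 4 of the 9 were so on every array of at least 1 dose group (S100a8, S100a9, Slpi and Camp), each on all 19 arrays. In liver 1 of the 9, Slpi, was so in at least 1 dose group, and none was on all 20 arrays. A gene near background can have changed by more than its log2 ratio shows.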

How the data were processed

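RNA of forestomach, lung and liver was hybridised by the authors to 2-colour arrays, and the deposited Cy5 and Cy3 intensities are the scanner's median signals (Feature Extraction 10.7.3.1 per the file headers). The authors also deposited processed log2 ratios, whose scale matched log2(Cy5/Cy3) (r = 0.968 to 0.999 with the values used here, array medians from -0.041 to -0.00718, 484 values missing) and which served as an alternative. Whether the authors filtered spots further is not given in the sources used here. From the 62976 spots per array, control spots were left out, non-uniform spots were set to missing, log ratios were loess-normalised within each array without background correction, and repeated spots were averaged (limma 3.58.1, R 4.3.3). RefSeq names (GRCm38.p6) were matched for 26413 of the 55681 probes and 20018 symbols, while the array was designed on mm9. No column was left unmatched to a sample. The number of arrays limits the precision.

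Each dose was compared with vehicle with all 4 dose groups of a tissue in one limma fit. Tissues were compared on vehicle arrays, and the lung and liver high-dose effects on vehicle and high-dose arrays of both. The brightest probe stood for a gene. A bound ("at least") is the mean Cy5 level after loess and Aquantile of the brighter group against the dimmest level well above background in the other, and is open to dye bias. Markers and list genes were named when called (at most 4 a list), and genes of like pattern were the 5 highest correlations. The genes and lists were chosen with earlier results of these data known. Mouse numbers mark the same animal in each tissue per the labels. The correlation of same-mouse deviations was -0.12 to 0.13 over the 3 tissue pairs, and 1 call changed with the mouse as a block. Alternatives were median centring, normexp with offset 50, the authors' values, detected probes only, the slide as a block, leaving out the third liver slide, the brightest probe only and each mouse left out. Leaving mouse 6 or mouse 13 out of the lung fit was added after the data were seen. The steps were tested on simulated data.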

Additional observations from a re-analysis of the deposited data

Results flagged for a closer look

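In 10 of 120 groups of 4 or 5 arrays, 1 array lay far from the others of its group, and chance alone gives about 1 such group in 20. In low-dose lung, mouse 6 stood apart for Defb1 (1.88, next mouse 0.15), Defb4 (0.98, next -0.021) and Defb14 (3.55, next 0.14). This is the array with stratified epithelium markers at a mean of 1.82. In high-dose lung, mouse 19 stood apart for both Camp probes (3.31, next 1.78, and 2.42, next 1.09), and it also had the highest S100a8 (4.47), S100a9 (8.02) and Slpi (0.15) of its group, with a neutrophil marker mean of 1.65. In vehicle liver, Slpi of mouse 5 was at -2.08 (next -3.94), on the third slide. In low-dose forestomach, mouse 7 was apart for S100a8 (-2.37, next -1.83, not well above background there) and the dimmer Camp probe (0.41, next 0.064). The brighter Camp probe was apart in low-dose liver mouse 9 (0.48, next 0.14) and in high-dose forestomach mouse 20 (-0.12, next 0.026, not well above background). What sets these arrays apart was not tested.

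Of 70 pairs of effects at the same dose in different tissues, 2 went opposite ways in every mouse. Defb1 at the medium dose differed from the vehicle mean by 0.24 in lung and -0.60 in forestomach, and Defb14 at the low dose by -0.14 in liver and 0.42 in forestomach. In lung, Defb1 was well above background on 0 of the 5 vehicle and 1 of the 5 medium-dose arrays. In liver, Defb14 was so on 1 of the 5 vehicle and 0 of the 5 low-dose arrays. In each pair the lung or liver side was thus near background. These differences between tissues were not tested.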

How the results depend on the processing

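The number of genes called changed with the setting in lung and liver. Median centring gave 1 gene called in medium-dose lung and 2 in high-dose lung, against 0 and 1, and the slide as a block gave 2 in high-dose lung, S100a9 being added each time. In liver the slide block gave 1 gene for the medium and 1 for the high dose, and leaving out the third slide gave 1 and 2, against 0 and 0. Without that slide the lung and liver high-dose effects differed in 2 genes, against 0. With each mouse left out in turn, high-dose lung had 0 to 2 genes called: 0 without mouse 1, 2, 5, 17, 19 or 20 and 2 without mouse 18. Every other count per comparison stayed within 1.5 times under these settings (190 recomputed counts). Of 1863 recomputed differences of single probes, none that was called changed sign, 13 passed the threshold newly, 9 no longer passed it and 3 were descriptions that moved (Defb3 to 0.76 and S100a7a to 0.70 with median centring, S100a9 to 1.25 without mouse 19, all in high-dose forestomach). In 144 the sign changed where nothing was called. The cause of these shifts was not tested, beyond the fewer arrays of the fits that leave some out. With the mouse as a replicate block the paired tissue comparisons had 6 (forestomach and lung), 5 (forestomach and liver, S100a8 being added) and 4 (lung and liver) genes called, and the lung and liver high-dose effects 0, and the block changed no other call. With the authors' values S100a8 also passed between forestomach and liver (-0.82, adjusted p = 0.0447). Without the third liver slide it did not (-0.44, adjusted p = 0.111). Signals near background limit Defb1, Defb3, Defb4, Defb14 and S100a7a in lung and liver, where a change of a low transcript could have been missed. The same holds in liver for S100a8, S100a9 and the brighter Camp probe, well above background on 8, 14 and 11 of the 20 arrays. In forestomach it holds for Defb3 (8 of 20), Defb4 (3), S100a7a (13), S100a8 (15) and the brighter Camp probe (12).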
